A study of Mus musculus with 6 samples.

Results

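The 44 genes described here encode transporters, endocytic receptors and brush border proteins of the proximal tubule, with a few companion genes (Miox, Hnf4a and Kap). They were listed by name, and each was found by its symbol in the deposited table of 46603 genes. What was measured is RNA of kidney CD11B+ cells, isolated with antibody-coated magnetic beads from 2 groups of 3 male mice, with 1 library per mouse. PTEC DN RAR mice, which were PEPCK CRE+ and carried Rosa26-LSL-RARaT403X, made a truncated, dominant negative retinoic acid receptor wherever the PEPCK promoter had switched on Cre, which is mainly in proximal tubular epithelial cells (PTECs). Cre- control mice were PEPCK CRE- and carried the same Rosa26-LSL-RARaT403X allele. All 6 mice were 10 to 12 weeks old, underwent bilateral ischemia-reperfusion injury (IRI-AKI) by clamping of both renal pedicles for 28 minutes, and were studied on day 3, and no uninjured mice were analysed here. The receptor was thus altered in PTECs, and not by design in the CD11B+ cells that were sorted.

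The proximal tubule takes back most of what the glomerulus filters. Sodium-coupled carriers on its brush border recover phosphate, glucose, amino acids and organic acids, the megalin and cubilin receptors retrieve filtered proteins by endocytosis, and carriers of the SLC22 family move drugs and urate. The early S1 and S2 segments hold the high-capacity carriers, and the late S3 segment, which runs into the outer medulla, holds high-affinity carriers. The proximal tubule is also the part of the nephron most sensitive to ischemia, S3 above all.

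Libraries held 29318041 to 46517005 reads counted on genes. Macrophage markers were abundant in every library: Itgam, which encodes CD11B, had 1737 to 1995 CPM (counts per 1000000 reads on genes, scaled between libraries by TMM) in Cre- controls and 980 to 1366 in PTEC DN RAR, Csf1r had 3097 to 3591 CPM over all 6 libraries, and Adgre1 had 1225 to 1712. Itgam was lower in PTEC DN RAR (log2 fold change -0.64, edgeR adjusted p = 0.0082). Rara, whose mutant form the transgene encodes, had 45.4, 35.3 and 45.1 CPM in Cre- controls against 30.7, 31.5 and 37.5 CPM in PTEC DN RAR, a level that does not separate the transgene from the normal gene and checks no label. Mitochondrial genes took 5.03 to 8.77% of the reads in Cre- controls and 10.4 to 12.1% in PTEC DN RAR.

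The members were compared between the genotypes to see whether proximal tubule transcripts differed in these CD11B+ preparations. Of the 44 members, 42 passed the filter on low counts, and 39 of these were higher and 1 was lower in PTEC DN RAR (edgeR quasi-likelihood test, adjusted p under 0.05), against 23.6% of all 15440 tested genes called higher, 17.1% called lower and 40.6% called in either direction. With libraries scaled on pan-leukocyte genes instead of TMM, 4782 of all genes were higher and 730 lower, in place of 3640 and 2636, and 39 members were higher and 1 lower. The 37 members that are made in the kidney mostly by the tubule will be called tubule members, and 34 of the 35 tested were higher by 2.26- to 6.0-fold, all of them past 2-fold, which 14.4% of all genes were. Their median log2 fold change was 1.75 (3.36-fold), beside a median of 0.035 over all genes. The other 7 members (Dab2, Anpep, Slc7a7, Slc7a8, Slc13a3, Ggt1 and Slc22a18) are also made outside the tubule, some of them by macrophages. Of these, 5 were higher, Dab2 was lower and Slc7a8 was not called, with a median of 0.68. In bulk RNA of this kind, a change in the number of cells of a type and a change in RNA per cell cannot be told apart.

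All tubule members together took 0.0995% (95% Wilson interval 0.0985 to 0.101), 0.0791% (0.0781 to 0.0801) and 0.112% (0.111 to 0.114) of the reads in the Cre- control libraries. In PTEC DN RAR their share was 0.257% (0.255 to 0.258), 0.400% (0.398 to 0.402) and 0.328% (0.327 to 0.330). The groups did not overlap, and the share of these 37 genes was at most 0.400% in any library. Intervals cover counting error only. Of the 42 tested members, 39 were higher in all 3 PTEC DN RAR libraries than in any Cre- control, and 2 (Dab2 and Slc7a8) were lower, where 29.2% and 24.2% of all tested genes were so ordered. The plot of members by library shows this separation gene by gene.

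**Figure D1:**
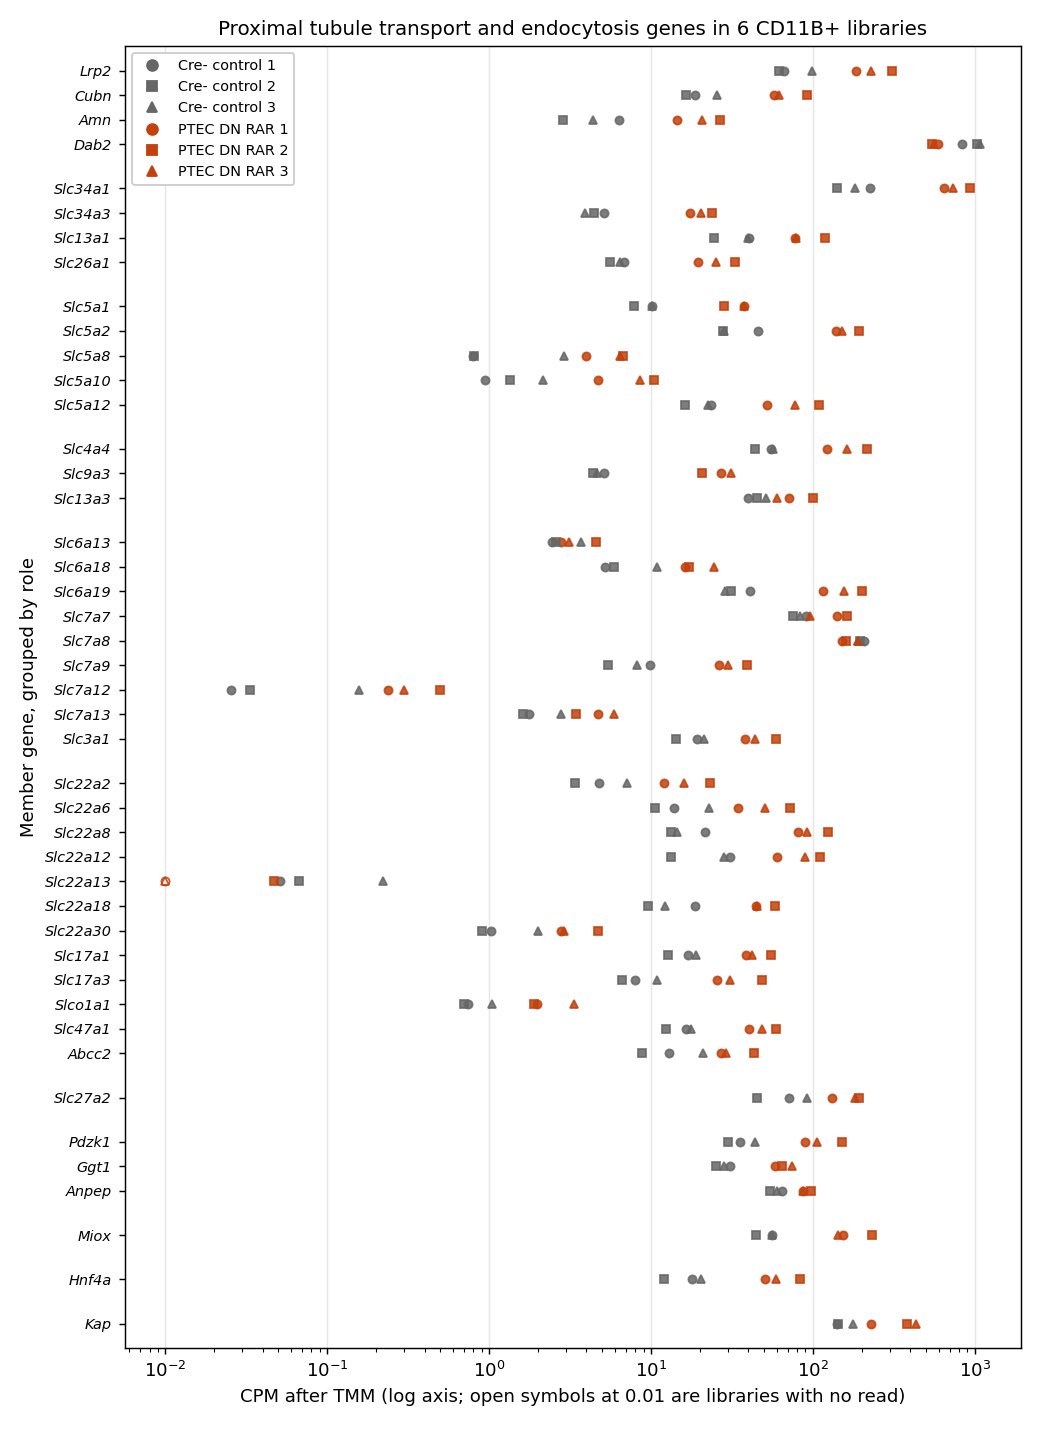
CPM after TMM (log axis) of all 44 members in the 3 Cre- control libraries (grey) and the 3 PTEC DN RAR libraries (orange), with 1 symbol shape per replicate number and members grouped by role. Of the 42 tested members, orange symbols lie to the right of all grey ones for 39, to the left for Dab2 and Slc7a8, and among them for Slc6a13; Slc7a12 and Slc22a13 rest on a few reads.

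The receptor genes of protein endocytosis were higher in PTEC DN RAR and their adaptor was lower. Lrp2, which encodes megalin, had 66.3, 61.8 and 98.8 CPM in Cre- controls against 184, 309 and 227 CPM in PTEC DN RAR. Cubn, which encodes cubilin, had 18.8, 16.4 and 25.7 CPM in Cre- controls against 57.3, 92.1 and 61.6 CPM in PTEC DN RAR. Amn, which encodes amnionless, the membrane partner that carries cubilin to the cell surface, had 6.33, 2.85 and 4.37 CPM in Cre- controls against 14.4, 26.6 and 20.6 CPM in PTEC DN RAR. For each of the 3 genes every PTEC DN RAR library was above every Cre- control. The log2 fold changes were 1.67 for Lrp2 (SE 0.23, adjusted p = 0.0010), 1.79 for Cubn (SE 0.22, adjusted p = 0.00062) and 2.17 for Amn (SE 0.31, adjusted p = 0.0012). Within a library the log2 ratio of Cubn to Lrp2 was -1.89 ± 0.063 (SD, n = 3) in Cre- controls and -1.77 ± 0.10 in PTEC DN RAR, with overlapping groups. Amn and Cubn held a log2 ratio of -2.22 ± 0.56 in Cre- controls and -1.79 ± 0.20 in PTEC DN RAR, again overlapping.

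Dab2, the clathrin adaptor that binds the tail of megalin and that macrophages also make, went the other way. It had 835, 1031 and 1075 CPM in Cre- controls against 596, 547 and 563 CPM in PTEC DN RAR. All 3 PTEC DN RAR libraries were lower than all 3 Cre- controls, and the log2 fold change was -0.79 (SE 0.12, adjusted p = 0.0014). Dab2 alone took 0.0800, 0.105 and 0.110% of the reads in Cre- controls, about as much as all tubule members together in those libraries, and 0.0592, 0.0543 and 0.0571% in PTEC DN RAR. Over the 9 CD11B+ myeloid identity genes, 0 were called higher and 5 lower at an adjusted p under 0.05, with a median log2 fold change of -0.44, and their summed level was 10255 to 10528 CPM in Cre- controls and 7950 to 9348 in PTEC DN RAR. The part of these genes in the Dab2 result was not tested.

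The carriers of phosphate and sulfate were all higher in PTEC DN RAR. Slc34a1, the main renal phosphate carrier (NaPi-IIa), had 225, 141 and 182 CPM in Cre- controls against 643, 933 and 731 CPM in PTEC DN RAR. Slc34a3, the related carrier NaPi-IIc, had 5.15, 4.46 and 3.93 CPM in Cre- controls against 17.4, 23.9 and 20.5 CPM in PTEC DN RAR. Slc13a1, the apical sodium-sulfate carrier, had 40.1, 24.6 and 39.7 CPM in Cre- controls against 77.5, 118 and 78.8 CPM in PTEC DN RAR. No library of a genotype reached the range of the other for any of the 3. Log2 fold changes were 2.07 (SE 0.20) for Slc34a1, 2.19 (SE 0.17) for Slc34a3 and 1.39 (SE 0.22) for Slc13a1, and that of Slc26a1, a basolateral sulfate exchanger, was 2.05 (SE 0.20). The log2 ratio of Slc34a3 to Slc34a1 was -5.32 ± 0.30 in Cre- controls and -5.22 ± 0.064 in PTEC DN RAR, so both phosphate carriers kept about the same proportion in the 2 genotypes, with overlapping groups.

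All 5 sodium-coupled carriers of sugars and monocarboxylates were higher. Slc5a2, which encodes SGLT2, the bulk glucose carrier of the early tubule, had 45.9, 28.0 and 28.4 CPM in Cre- controls against 138, 193 and 152 CPM in PTEC DN RAR (log2 fold change 2.24, SE 0.21). Slc5a1, which encodes the high-affinity glucose carrier SGLT1 of the late tubule, had 10.1, 7.92 and 10.1 CPM in Cre- controls against 37.7, 28.1 and 37.8 CPM in PTEC DN RAR (log2 fold change 1.88, SE 0.16). The pair diverged in their order within PTEC DN RAR, where replicate 2 had the most Slc5a2 and the least Slc5a1. The log2 ratio of Slc5a1 to Slc5a2 lay between -2.18 and -1.49 for Cre- controls and between -2.78 and -1.87 for PTEC DN RAR, and the groups overlapped.

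Slc5a10, which encodes SGLT5, a carrier of mannose and fructose, had 0.948, 1.34 and 2.15 CPM in Cre- controls against 4.73, 10.5 and 8.54 CPM in PTEC DN RAR. Its log2 fold change, 2.43 (SE 0.37), was the largest of the group. Slc5a12, a low-affinity lactate carrier of the early tubule, had 23.5, 16.2 and 22.4 CPM in Cre- controls against 51.8, 110 and 77.5 CPM in PTEC DN RAR (log2 fold change 1.94, SE 0.26). Slc5a8, its high-affinity counterpart in S3, had 0.794, 0.805 and 2.91 CPM in Cre- controls against 3.99, 6.72 and 6.42 CPM in PTEC DN RAR (log2 fold change 1.93, SE 0.48). The standard error of Slc5a8 was the widest among the 42 tested members, with replicate 3 of the Cre- controls far above the other 2, and without that library the log2 fold change was 2.79.

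The carriers that handle bicarbonate, protons and dicarboxylates were higher as well. Slc9a3, which encodes the sodium-proton exchanger NHE3, had 5.15, 4.39 and 4.66 CPM in Cre- controls against 27.1, 20.7 and 31.4 CPM in PTEC DN RAR. It changed by 2.48 on the log2 scale (SE 0.17, adjusted p = 0.00015), next to the highest of all members. Slc4a4, the basolateral sodium-bicarbonate carrier, had 55.2, 44.2 and 57.1 CPM in Cre- controls against 123, 216 and 163 CPM in PTEC DN RAR (log2 fold change 1.68, SE 0.20). Slc13a3, a dicarboxylate carrier that is also made outside the tubule, had 39.7, 45.4 and 51.1 CPM in Cre- controls against 71.4, 100.2 and 59.9 CPM in PTEC DN RAR. That carrier changed by 0.77 on the log2 scale (SE 0.18, adjusted p = 0.011), smaller than that of either neighbour in the group. Among all tested tubule members, PTEC DN RAR replicate 2 was lowest of its genotype for 4 genes, and Slc9a3 and Slc5a1 were among them.

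Of the amino acid carriers, 6 of 8 tested members were higher and 2 were not called. Slc6a19, the main carrier of neutral amino acids in the early tubule, had 40.9, 31.4 and 28.8 CPM in Cre- controls against 116, 201 and 157 CPM in PTEC DN RAR (log2 fold change 2.23, SE 0.21). Its late-segment relative Slc6a18 had 5.17, 5.90 and 10.9 CPM in Cre- controls against 16.2, 17.3 and 24.6 CPM in PTEC DN RAR (log2 fold change 1.40, SE 0.29). For both, the groups did not overlap. Slc7a9 and Slc3a1 encode the light and heavy chains of the cystine carrier, the genes altered in cystinuria. Slc7a9 had 9.91, 5.40 and 8.17 CPM in Cre- controls against 26.2, 39.0 and 30.1 CPM in PTEC DN RAR (log2 fold change 2.01, SE 0.23). Slc3a1 had 19.2, 14.3 and 21.2 CPM in Cre- controls against 38.3, 59.4 and 44.02 CPM in PTEC DN RAR (log2 fold change 1.37, SE 0.19). The log2 ratio of Slc3a1 to Slc7a9 was 0.95, 1.41 and 1.37 for the Cre- controls and 0.55, 0.61 and 0.55 for PTEC DN RAR. The ranges of this ratio did not overlap between genotypes, and of the 9 pairs of related members compared in this way the same held for Slc22a8 over Slc22a6. No test was made on these ratios. Exons of Slc3a1 overlap Prepl on the opposite strand, whose reads may have been counted with it.

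Slc7a13, a partner of the heavy chain in S3, had 1.77, 1.61 and 2.79 CPM in Cre- controls against 4.73, 3.46 and 5.91 CPM in PTEC DN RAR (log2 fold change 1.20, SE 0.28). Slc7a12, its neighbour in the family, did not pass the filter and had 1, 1 and 5 reads in Cre- controls against 10, 21 and 14 reads in PTEC DN RAR. Every PTEC DN RAR library held more of its reads than any Cre- control. It was tested and called higher with no filter beyond 1 read and when PTEC DN RAR replicate 1 or Cre- control replicate 3 was left out. Slc6a13, which encodes a carrier of GABA and taurine, had 2.43, 2.58 and 3.71 CPM in Cre- controls against 2.80, 4.55 and 3.14 CPM in PTEC DN RAR. It was the single tested tubule member that was not called (log2 fold change 0.27, SE 0.26, adjusted p = 0.44), and the groups overlapped.

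Slc7a7 and Slc7a8 encode basolateral light chains that leukocytes also make. Slc7a7 had 91.2, 75.5 and 83.8 CPM in Cre- controls against 141, 164 and 96.6 CPM in PTEC DN RAR (log2 fold change 0.68, SE 0.18, adjusted p = 0.016). This call was lost without Cre- control replicate 2 (0.57, adjusted p = 0.062) and without replicate 3 (0.63, adjusted p = 0.061). Slc7a8 had 207, 195 and 191 CPM in Cre- controls against 152, 160 and 191 CPM in PTEC DN RAR, so that the highest PTEC DN RAR library nearly touched the lowest Cre- control. Its log2 fold change of -0.24 (SE 0.10) was not called (adjusted p = 0.094), but without PTEC DN RAR replicate 3 it was -0.39 (adjusted p = 0.016), and with libraries scaled on pan-leukocyte genes it was -0.019 (adjusted p = 0.93). Slc7a8 was the most abundant amino acid carrier among the members in Cre- controls, also per length, at 39.4 CPM per kb of exon, and Slc7a7 had 25.2.

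The carriers of organic anions, cations and drugs were higher in all 11 tested cases. Slc22a8, which encodes OAT3, a basolateral organic anion carrier, had 21.6, 13.4 and 14.4 CPM in Cre- controls against 80.7, 124 and 92.2 CPM in PTEC DN RAR. Its log2 fold change of 2.59 (6.0-fold, SE 0.22, adjusted p = 0.00020) was the largest of all 42 tested members, and ran from 2.39 to 2.83 as each mouse was left out in turn. Slc22a6, which encodes the related OAT1, had 14.0, 10.7 and 22.8 CPM in Cre- controls against 34.6, 72.5 and 51.0 CPM in PTEC DN RAR (log2 fold change 1.74, SE 0.32). The log2 ratio of Slc22a8 to Slc22a6 was 0.63, 0.32 and -0.66 for the Cre- controls but 1.22, 0.78 and 0.85 for PTEC DN RAR, with no overlap and with a wide spread among the controls.

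Slc22a12, the urate exchanger URAT1 of the brush border, had 30.7, 13.4 and 28.1 CPM in Cre- controls against 59.7, 111 and 89.3 CPM in PTEC DN RAR (log2 fold change 1.84, SE 0.31). Slc22a30, a late-segment member of the organic anion family, had 1.02, 0.906 and 2.00 CPM in Cre- controls against 2.80, 4.69 and 2.92 CPM in PTEC DN RAR (log2 fold change 1.41, SE 0.35). Slco1a1, an organic anion carrier of S3, had 0.743, 0.705 and 1.05 CPM in Cre- controls against 1.98, 1.89 and 3.37 CPM in PTEC DN RAR (log2 fold change 1.54, SE 0.32). These 3 genes differed by more than their spread although the last of them was near 1 CPM in the controls. Abcc2, the apical export pump MRP2, had 12.9, 8.82 and 20.9 CPM in Cre- controls against 27.1, 43.5 and 29.0 CPM in PTEC DN RAR, the smallest change of the group (log2 fold change 1.22, SE 0.30). Slc22a18, which is also made outside the tubule, had 18.6, 9.53 and 12.3 CPM in Cre- controls against 44.6, 58.3 and 45.5 CPM in PTEC DN RAR (log2 fold change 1.87, SE 0.23), more like the tubule members than the other 6 of its kind. The remaining carriers were Slc22a2 (OCT2, log2 fold change 1.74), the organic anion and urate carriers Slc17a1 (1.48) and Slc17a3 (2.05), and the apical cation exchanger Slc47a1 (MATE1, 1.68). Slc22a13, an exchanger of nicotinate and urate, was under the filter with 2, 2 and 7 reads in Cre- controls against 0, 2 and 0 reads in PTEC DN RAR, where a count of 0 allows a level of up to 0.072 and 0.064 CPM in the respective libraries.

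The brush border enzymes, the scaffold and the companion genes were all higher. Pdzk1, the scaffold that anchors apical carriers, had 35.7, 29.99 and 44.1 CPM in Cre- controls against 89.3, 151 and 106 CPM in PTEC DN RAR (log2 fold change 1.66, SE 0.21). Ggt1, gamma-glutamyl transferase of the brush border, had 31.0, 25.3 and 28.3 CPM in Cre- controls against 58.0, 64.9 and 74.9 CPM in PTEC DN RAR (log2 fold change 1.23, SE 0.12). Anpep, aminopeptidase N, which myeloid cells also carry, had 64.8, 54.2 and 59.8 CPM in Cre- controls against 86.4, 97.5 and 86.5 CPM in PTEC DN RAR (log2 fold change 0.60, SE 0.10, adjusted p = 0.0021). None of the 3 overlapped between genotypes, and the 1.51-fold change of Anpep was the smallest among members called higher. Slc27a2, which activates and takes up long-chain fatty acids, had 71.2, 45.3 and 92.2 CPM in Cre- controls against 132, 194 and 183 CPM in PTEC DN RAR (log2 fold change 1.29, SE 0.24). Miox, the enzyme that opens the inositol ring, had 56.0, 44.6 and 56.2 CPM in Cre- controls against 153, 231 and 143 CPM in PTEC DN RAR (log2 fold change 1.75, SE 0.19).

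Hnf4a, a nuclear receptor that many proximal tubule genes depend on, had 17.9, 12.0 and 20.4 CPM in Cre- controls against 50.8, 82.9 and 59.2 CPM in PTEC DN RAR. The log2 fold change of Hnf4a was 1.94 (SE 0.23, adjusted p = 0.00055), within the range of the carriers. Kap, an androgen-regulated protein made by the proximal tubule, had 141, 142 and 178 CPM in Cre- controls against 230, 380 and 433 CPM in PTEC DN RAR. Its log2 fold change of 1.18 (SE 0.21, adjusted p = 0.0036) was the smallest among the tubule members called higher. Per length, Kap was nevertheless the most abundant tubule member in both genotypes, at 217 CPM per kb in Cre- controls and 492 in PTEC DN RAR. Slc34a1 came next with 39.1 and 164 CPM per kb, and Miox followed with 31.7 and 106. Slc34a1 made up 16.6 to 21.7% of the summed CPM of tubule members in Cre- controls and 22.6 to 24.9% in PTEC DN RAR, while Kap made up 13.6 to 18.3% and 8.90 to 13.4%.

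Promoter sequence was searched because the members moved together and Hnf4a was among them. RefSeq promoter windows on GRCm38.p6, from 250 bases before to 50 after a transcript start, were found for 37 of the 44 members, in 54 windows, and both strands were read. The HNF4 core CAAAGTCCA occurred in 2 member windows (3.70%) and in 0.475% of all 32851 windows. Direct repeats of the cores GGTCA (0.0761% of all windows) or GTTCA (0.0396%), as 2 copies with 5 bases of any kind between them, occurred in 0 member windows. The retinoic acid response half-site is 1 base longer than these cores. Its direct repeat with 5 bases between the copies was therefore not searched, and these counts say nothing on it. The direct repeat core CAAAGGTCA (0.478%) was likewise found in 0 member windows. The same held for the HNF1 element, GTTAAT and ATTAAC with 1 base of any kind between them (0.00913%), and for its inner part, TTAAT and ATTAA with the same gap (0.122%), which overlaps it. A match is a description of the letters and not a site. The 2 windows with a match are printed from 200 bases before to 30 after the start on GRCm38.p6, with the match in capitals. The Slc3a1 stretch is chr17:85028147-85028376 on the plus strand and its match begins at base -39 from the start. The Pdzk1 stretch is chr3:96829865-96830094 on the plus strand and its match begins at base 15 after the start.
Slc3a1: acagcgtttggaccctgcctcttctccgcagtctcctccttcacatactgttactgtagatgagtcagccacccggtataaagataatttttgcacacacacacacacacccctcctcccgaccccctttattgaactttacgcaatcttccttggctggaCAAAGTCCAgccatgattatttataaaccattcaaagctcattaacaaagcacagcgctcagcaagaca
Pdzk1: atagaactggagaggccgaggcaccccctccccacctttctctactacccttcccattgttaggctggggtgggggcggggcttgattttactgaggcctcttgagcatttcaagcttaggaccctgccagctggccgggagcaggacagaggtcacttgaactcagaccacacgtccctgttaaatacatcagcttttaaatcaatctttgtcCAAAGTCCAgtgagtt

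Early (S1/S2) and late (S3) members were then set side by side. The early group was Slc34a1, Slc34a3, Slc5a2, Slc5a12, Slc4a4, Slc22a6, Slc22a8, Slc22a12, Slc6a19 and Slc7a9, and the late group was Slc5a1, Slc5a8, Slc22a30, Slc6a18, Slc7a12, Slc7a13, Slc3a1 and Slco1a1. All 10 early members were higher in PTEC DN RAR, by 1.68 to 2.59 on the log2 scale with a median of 2.04 (4.12-fold). All 7 tested late members were higher too, by 1.20 to 1.93 with a median of 1.41 (2.65-fold). The ranges met at Slc5a8 and Slc5a1: 5 of 7 late members changed less than every early member, and 7 of 10 early members changed more than every late member. The late median was 0.64 below the early median, with no test made on this difference. It was -0.26 without Cre- control replicate 3, -0.40 without PTEC DN RAR replicate 2, and between -0.80 and -0.26 as each mouse was left out in turn.

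**Figure D2:**
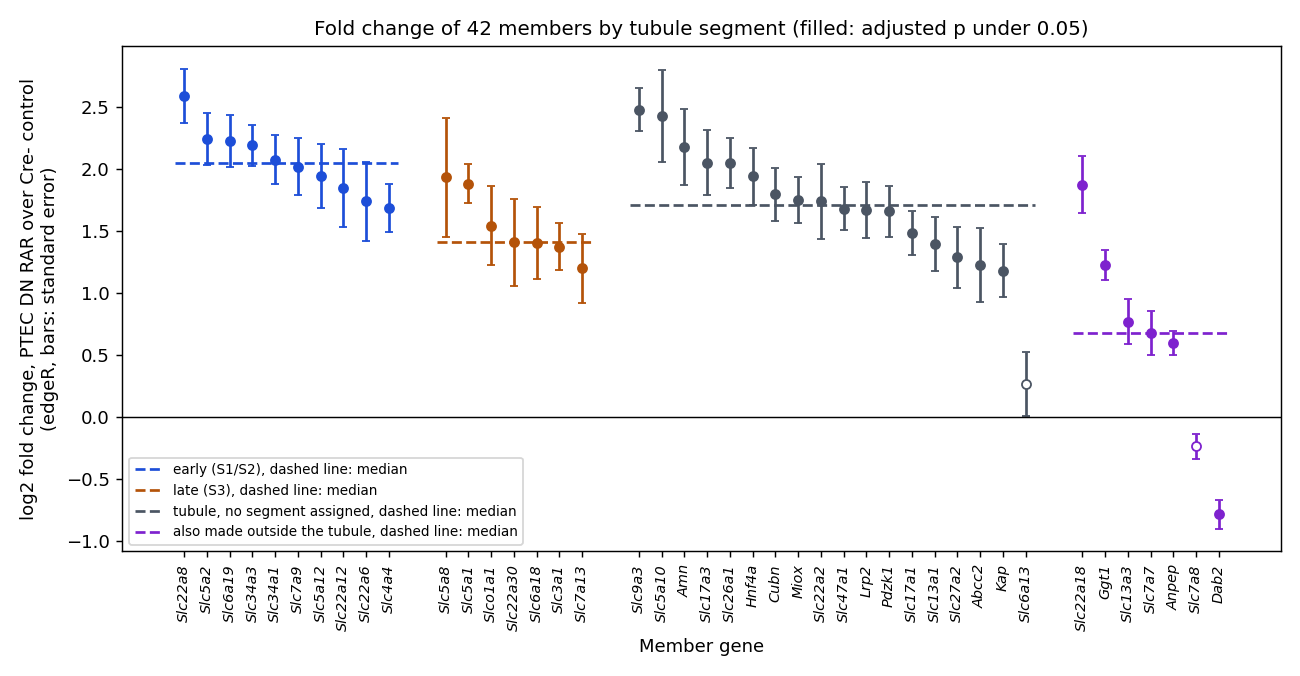
Log2 fold change (PTEC DN RAR over Cre- control) of the 42 tested members with its standard error, by segment, with open symbols for the 2 members not called and dashed lines at the group medians. Early members center on 2.04, late members on 1.41, and members also made outside the tubule on 0.68, with Slc7a8 and Dab2 below 0.

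The segment difference was also read inside each library, as the mean log2 CPM of late members minus that of early members. It came to -3.31, -2.84 and -2.37 for Cre- control replicates 1 to 3 and to -3.17, -3.72 and -3.14 for PTEC DN RAR replicates 1 to 3. The means were -2.84 ± 0.47 and -3.34 ± 0.32 (SD, n = 3), and the groups overlapped. The Cre- controls therefore differed among themselves in segment balance by more than the genotype means did. In Cre- control replicate 1, 8 of the 10 early members and 0 of the 7 late members had their highest control value. In Cre- control replicate 3, 7 of the 7 late members and 2 of the 10 early members had theirs.

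The PTEC DN RAR libraries also differed among themselves, with late members on both sides. Replicate 2 was the highest of its genotype for 29 of the 35 tested tubule members, and replicate 1 was the lowest for 30. Those highest in replicate 2 included all 10 early members and 3 late members (Slc5a8, Slc3a1 and Slc22a30). The 6 members with their highest value in replicate 3 were Slc5a1, Slc9a3, Slc6a18, Slc7a13, Slco1a1 and Kap, of which 4 are late members. Slc5a1, Slc9a3, Slc7a13 and Slco1a1 were lowest in replicate 2. Thick ascending limb markers were also lowest in replicate 2 of this genotype, with a summed level of 4571 CPM against 7292 in replicate 1 and 8677 in replicate 3. Their part in the order of Slc9a3 and Slc5a1 was not tested.

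Markers of other kidney cells differed between the genotypes too, to unequal extents. Over all tested genes, 23.6% were called higher and 17.1% lower. The 26 proximal tubule enzyme genes, none of which is a member, had 23 called higher, a median log2 fold change of 1.85 and a summed level of 548 to 732 CPM in Cre- controls and 1935 to 3158 in PTEC DN RAR. All 8 thick ascending limb markers were higher (median 2.23, 1202 to 1604 CPM summed in Cre- controls and 4571 to 8677 in PTEC DN RAR). All 6 distal convoluted tubule markers were higher (median 2.37, 928 to 1192 and 1883 to 2251 CPM). The largest part of that summed level was Wnk1, a kinase gene that many cells make, with a log2 fold change of 0.42. All 8 endothelial markers were higher (median 1.38, 80.6 to 121 and 239 to 291 CPM). No gene of these 4 lists was at 0 in any library. Of 8 collecting duct markers 4 were called higher and 0 lower (median 1.21), and the summed levels overlapped, at 89.0 to 228.9 CPM in Cre- controls and 226 to 484 in PTEC DN RAR. Of 6 podocyte markers 5 were called higher (median 1.42, 52.2 to 83.4 and 149 to 182 CPM summed). Of 6 stromal markers 4 were called higher (median 1.01, 72.2 to 85.01 and 97.1 to 153 CPM summed). Only 2 of the 6 were higher with no overlap between genotypes, an order that 29.2% of all tested genes had. Differences between the medians of these lists and that of the tubule members (1.75) were not tested. Of 24 pan-leukocyte genes 0 were called higher and 8 lower (median -0.20), with a summed level of 17364 to 18210 CPM in Cre- controls and 13798 to 16231 in PTEC DN RAR. Of 8 neutrophil genes 0 were called higher and 5 lower (median -1.27), with 310.1 to 655 CPM summed in Cre- controls and 162 to 247 in PTEC DN RAR. Of 5 injured tubule markers 1, Vcam1, was called higher, beside 23.6% of all tested genes. Vcam1 had 87.0, 127 and 86.3 CPM in Cre- controls against 174, 264 and 126 CPM in PTEC DN RAR, with overlapping groups. Havcr1, which encodes Kim1, had 6.25, 9.73 and 13.8 CPM in Cre- controls against 6.52, 10.5 and 7.35 CPM in PTEC DN RAR (log2 fold change -0.29, adjusted p = 0.46). The part of kidney cells other than PTECs, of the mitochondrial share or of the leukocyte share in the members' difference was not tested.

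**Figure D3:**
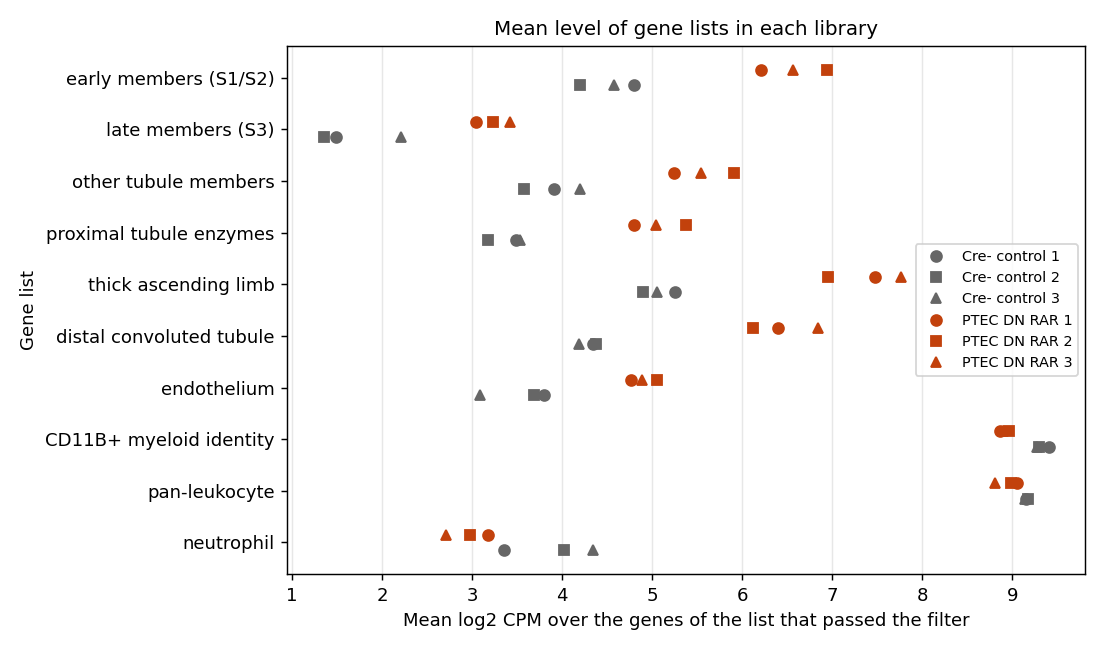
Mean log2 CPM over the genes of each list that passed the filter, with 1 symbol per library, for early, late and other tubule members and for marker lists of kidney and blood cells. In each of the epithelial and endothelial lists every PTEC DN RAR library (orange) is above every Cre- control (grey), whereas CD11B+ myeloid identity, pan-leukocyte and neutrophil genes are below.

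Other transport genes of the proximal tubule gave the surroundings of the members. Of 56 such genes that are not members, 50 were tested, 39 were higher and 1 was lower, with a median log2 fold change of 1.55. This median was below that of the tubule members (1.75) and above that of the members also made outside the tubule (0.68), and the differences between these lists were not tested. The call lower was lost with pan-leukocyte scaling and without any 1 of Cre- control replicates 1 and 3 and PTEC DN RAR replicates 1 and 2, each of which left 0 genes of the list called lower.

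To see which members differed relative to other transcripts of the same tubule, the libraries were rescaled so that the 26 proximal tubule enzyme genes had the same mean level in all 6. On this scale 0.868% of all genes were called higher and 81.6% lower, and the median over all genes was -1.64. Of the 35 tested tubule members, 4 were higher, 1 was lower and 30 were not called, and the latter lay between -0.53 and 0.50 on the log2 scale. Of the 26 enzyme genes themselves, 4 were called higher and 5 lower on this scale, and of the 50 tested other transport genes 0 were higher and 13 lower, so the share of tubule members called was no larger than in the reference list. The 4 tubule members called higher were Slc22a8 (0.89, SE 0.26, adjusted p = 0.0011), Slc9a3 (0.83, SE 0.29, adjusted p = 0.0053), Slc5a2 (0.55, SE 0.26, adjusted p = 0.041) and Slc5a10 (0.70, SE 0.34, adjusted p = 0.049). Slc6a13 was lower by a log2 difference of -1.44 (SE 0.34, adjusted p = 3.5e-05). Of the 8 thick ascending limb markers, 4 were called higher and 0 lower on this scale, with a median of 0.60. The part of thick ascending limb RNA in the Slc9a3 difference was not tested.

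The early members had a median of 0.36 on this scale and the late members one of -0.25, with 2 early and 0 late members called. Calls for Slc5a2 and Slc5a10 were lost under several single changes, that for Slc9a3 without PTEC DN RAR replicate 3 (adjusted p = 0.062), and those for Slc22a8 and Slc6a13 under none that was run. The replicate number as a block left Slc22a8 as the single member called higher. Scaling instead on the other proximal tubule transport genes gave 16 members higher, so the number of such members depends on the reference.

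**Figure D4:**
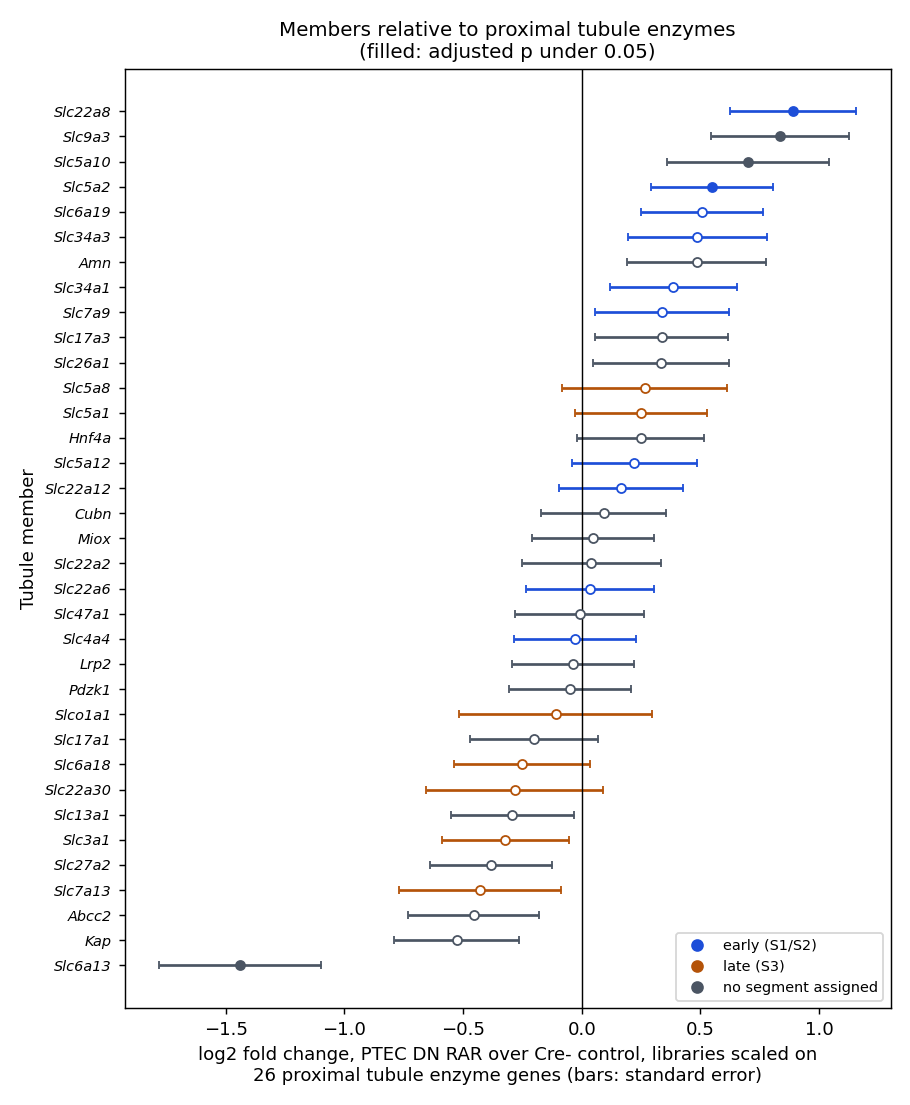
Log2 fold change (PTEC DN RAR over Cre- control) of the 35 tested tubule members after scaling the libraries on 26 proximal tubule enzyme genes, with standard errors, filled where the adjusted p is under 0.05. Slc22a8, Slc9a3, Slc5a10 and Slc5a2 lie above 0 and Slc6a13 below, and the other 30 lie between -0.53 and 0.50.

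Counting limits bear on a few members. Exons of 11 members (Cubn, Dab2, Slc34a1, Slc26a1, Slc5a2, Slc5a10, Slc7a7, Slc3a1, Slc22a12, Slc27a2 and Pdzk1) overlap a gene on the opposite strand, and whether the counting used strand is not given in the sources used here, so reads of such partners cannot be told apart. Reads that aligned to more than 1 place were not counted, and how much of each member this left out was not tested.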

How the data were processed

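The authors deposited 1 table of raw counts, the reads assigned to each Ensembl gene, with 1 column for each of the 6 mice. The submitters' processing notes name STAR 2.5.0a, HTSeq 0.6.1, edgeR, limma and GRCm38, and the annotation release and strand setting are not given in the sources used here. Between 42.9 and 47.8% of alignments per library were not unique and were not counted. The table held 46612 gene lines, of which 9 repeated a gene with equal counts and were collapsed. Coordinates and exon lengths came from GENCODE M21, which held 46091 of the genes. The lines that name no gene were left out of library sizes.

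Low genes were removed with filterByExpr and libraries were scaled by TMM. The quasi-likelihood test (glmQLFit, then glmQLFTest) of edgeR 4.0.16, run under R 4.3.3, had genotype as its single term, with Benjamini-Hochberg adjustment over 15440 genes (threshold 0.05). A standard error is the log2 fold change divided by the square root of F. Mean log2 CPM used a prior count of 2. Mice carry separate identifiers in the labels, so p values measure the spread between 3 mice per group, where the smallest exact permutation p for a single value would be 0.1. Shares have 95% Wilson intervals, and a count of 0 was given a limit of 3 reads. Reads carried no molecular identifiers. Alternatives used limma 3.58.1 (voom), DESeq2 1.42.0, no filter beyond 1 read, a minimum of 10 counts in every library, scaling by library size or on pan-leukocyte genes, the replicate number as a block, other segment lists and leaving out each mouse. On counts simulated for this comparison, edgeR tested 15223 genes and called 63 of 100 genes changed by 2-fold, 90 of 100 changed by 4-fold, and 17 unchanged genes. Only 200 genes were changed in the simulation, whereas 40.6% of tested genes were called in the data, so these rates may not hold for the data. Tables were read with pandas 2.3.3 and figures drawn with matplotlib 3.10.9.

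The members, the segment groups and the marker lists were chosen with earlier results of these data known, so counts over them are descriptions. Values in all 6 libraries are given for the endocytosis genes, for the most abundant member and those with the largest and the smallest change of each role, for early, late and outside-tubule members, and for tested members not called. Some genes of the other transport list are not reported here by name.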

Additional observations from a re-analysis of the deposited data

How the results depend on the processing

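Over all alternatives run, 38 to 40 members were called higher, 1 called lower, and the median log2 fold change of the tubule members was between 1.55 and 1.95. The exception was leaving out a mouse, where 1 to 2 members were lower, the second being Slc7a8 without PTEC DN RAR replicate 3. The late minus early median difference stayed negative, from -0.80 to -0.26 over all alternatives. Scaling on pan-leukocyte genes moved the median of all genes from 0.035 to 0.24 and the number called lower from 2636 to 730. Of the other proximal tubule transport genes 0 were lower with that scaling and 0 to 2 as each mouse was left out.

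Relative to proximal tubule enzymes, where 4 members were higher and 1 lower, limma-voom gave 2 lower, and no filter beyond 1 read and at least 10 counts in every library each gave 2 higher and 2 lower. Leaving out each mouse gave 1 to 5 higher and 1 to 2 lower, and scaling on other proximal tubule transport genes gave 16 higher. With the replicate number as a block 1 was higher, and the block moved no other count of calls by over 1.5 times. The deviations of same-numbered libraries from their group means correlated at -0.015, 0.21 and 0.029 for replicates 1 to 3, and since not every pair was over 0.1 the numbers were not taken to pair the mice. Where a cause is not given, it was not tested. Depth limits Slc7a12 and Slc22a13, with at most 21 reads in a library.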
